A study of Oryza sativa with 48 samples.

Results

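In rice roots placed in salt water, 13 genes were at least 8 times as abundant after 1 h as at the start and had lost most of that level by 6 h, in both lines studied. They are 13 of the 35667 gene identifiers counted. The members were chosen from measured values: L, the log2 of the mean CPM of a group (the count per 1000000 counts of the library) plus 0.5 over the 0 h mean plus 0.5, had to be 3 or more at 1 h and under 1 at 6 h and at 72 h, in each line by itself. The root levels that follow therefore describe how the members were picked and carry no test. The leaf levels of the same identifiers were not used by the choice and were tested. The difference between the lines in root was not itself a criterion, but the limits were set on the same root values in each line, so a gene with a large difference between the lines could be kept out by them.

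The plants were seedlings of Oryza sativa cultivar Kitaake, wild type (WT) or the line aoc, whose mutated gene is allene oxide cyclase. They grew in hydroponics for 11 days and were harvested untreated at 0 h or after 1, 6 or 72 h in 100 mM NaCl. Roots and the 2nd leaf were taken, with 3 libraries in each of the 16 groups, and each library came from 3 pooled plants. There were no untreated plants at 1, 6 or 72 h, so the hour of the day, the handling and the age of the plants cannot be told apart from the salt. Which allele the aoc line carries, and whether it is 1 line or several, is not given in the sources used here. Root RNA and leaf RNA were extracted with different kits, so the kit cannot be told apart from the organ.

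Salt reaches a root within minutes as an osmotic signal and later as sodium inside the cells. Plants are known to answer such a signal in waves: early transcripts that appear quickly and are soon degraded, often for signalling proteins and transcription factors, precede slower changes in transport, metabolism and growth. Jasmonate is a hormone made from membrane lipids, allene oxide cyclase is an enzyme early in its synthesis, and the hormone is known for responses to wounding and for limiting growth under salt. The identifiers of the 13 members are not paired with names or products in the sources used here, so no function is given to them.

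The 24 root libraries held 28567133 to 71663904 counts and the 24 leaf libraries 29872396 to 41026306. A level of 3 counts corresponded to between 0.0419 and 0.105 CPM in root and to between 0.0731 and 0.1 CPM in leaf, and that floor covers counting error only. The deepest library was replicate 3 of WT root at 1 h. The tissue labels and the mutated gene could not be checked by named genes, since the identifiers carry no annotation. CPM are not divided by gene length, so levels are compared between samples of the same identifier and never between identifiers. In whole roots and leaves, fewer cells that make a transcript and less of it per cell cannot be told apart.

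Few of the early genes met the later limits. L was 3 or more at 1 h for 166 identifiers in WT root and for 147 in aoc root, and for 128 in both. Of those 128, 114 (89.06%) still had L of 1 or more at 6 h in at least 1 line, and 1 more was above the limit only at 72 h, which leaves the 13 members (10.16%). Applied to 1 line alone, the rule took 29 identifiers in WT and 26 in aoc. The limits cut through a continuous range: the lowest 1 h value among the members was 3.05 for Os04g0412300, and the nearest identifiers outside it were Os01g0532300 and Os05g0510100, both at 2.98. At the later limit Os06g0201500 lay inside at 0.99, and Os05g0454500 and Os01g0775400 lay outside at 1.02. Within 0.5 of the 1 h limit there were 8 members above it and 26 other identifiers below it. Within 0.5 of the later limit there were 8 members under it and 22 others over it.

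**Figure D1:**
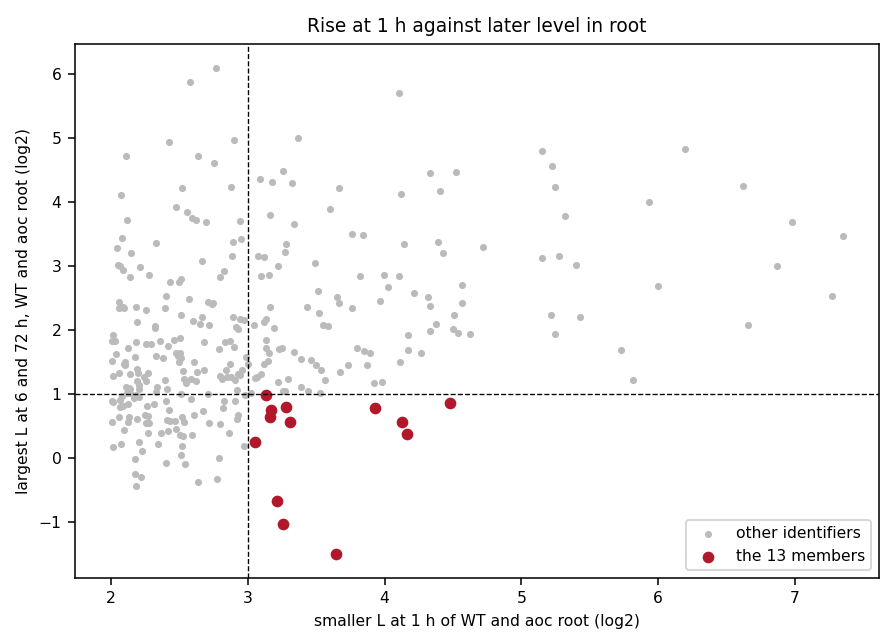
Each point is 1 gene identifier, with the smaller of its WT and aoc root L at 1 h on the horizontal axis and the largest L at 6 h or 72 h in either line on the vertical axis (both log2 units); 325 identifiers with a smaller 1 h value of 2 or more are drawn and dashed lines mark the limits of 3 and 1. The members fill the lower right corner and lie next to other identifiers at both limits, while most identifiers past the 1 h limit sit above the later one.

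By their later levels the members fell into 3 kinds. Os02g0685200, Os03g0822400 and Os04g0583900 had means under their starting level at 6 h and at 72 h in both lines. Os01g0833400, Os06g0201500 and Os09g0445600 had every 6 h library above every 0 h library in both lines. Over all identifiers 20.7% did so in WT root and 24% in aoc root. The other 7, among them Os03g0141200, which had the most reads at 1 h, had later values of L between −0.75 (Os10g0542400) and 0.79 (Os03g0623100). Several of them also had 6 h means above their starting level in both lines. The ratio was largest for Os03g0623100, at 4.55 in WT and 4.58 in aoc, from few reads. The constant added to both means keeps L small for low transcripts, so the later limit was lenient for them. By mean CPM in aoc root, Os10g0542400 and Os04g0649000 stood at 2.96 and 2.10 times their starting level at 6 h. Os03g0623100 stood at 9.12 times its starting level there at 72 h. In WT root the same ratios were 0.946, 1.17 and 0.441.

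The members with means under their starting level at both later hours were high at 1 h only. Os02g0685200 was at 6.12, 5.97 and 4.71 CPM in the 3 WT root libraries of 0 h, at 87.5, 105 and 115 at 1 h, at 1.61, 0.626 and 1.92 at 6 h and at 3.97, 0.133 and 0.918 at 72 h. Its aoc root libraries read 7.56, 5.95 and 8.06 CPM at 0 h, 97.0, 105 and 84.4 at 1 h, 3.05, 1.57 and 0.993 at 6 h, ending with 3.56, 1.57 and 1.06 at 72 h. All 12 libraries of the later hours were thus under all 6 of the 0 h, and its L was between −1.70 and −1.49. Os04g0583900 went from 8.93, 10.5 and 10.6 CPM in WT root to 105, 136 and 139.6 at 1 h and then to 4.73, 3.81 and 3.06 at 6 h, followed by 5.62, 2.53 and 3.77 at 72 h. In aoc root it read 11.2, 13.3 and 14.5 CPM at 0 h, 137, 134 and 115 at 1 h, 8.31, 4.62 and 5.56 at 6 h, and then 8.61, 4.13 and 4.38 at 72 h. Within each line no library of the later hours reached a library of 0 h. Os03g0822400 was less sharply separated: its WT root 0 h libraries held 3.43, 6.69 and 6.76 CPM, those of 1 h 56.6, 50.4 and 62.2, those of 6 h 2.62, 2.50 and 3.93, and those of 72 h 2.54, 1.68 and 2.79. In aoc root Os03g0822400 read 4.50, 7.88 and 8.37 CPM at 0 h, 92.8, 80.1 and 55.7 at 1 h, 3.61, 3.94 and 5.02 at 6 h, ending with 4.13, 2.65 and 2.82 at 72 h. The lowest library of 0 h overlapped the 6 h libraries in both lines, and at 72 h the groups did not overlap.

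The members above their starting level in every 6 h library of both lines kept only a small part of the 1 h level. Os09g0445600 held 3.07, 4.95 and 3.65 CPM in WT root at 0 h, 90.8, 88.8 and 121 at 1 h, 8.23, 5.54 and 8.65 at 6 h, followed by 7.16, 4.02 and 6.23 at 72 h. In aoc root it held 3.67, 4.34 and 5.28 CPM at 0 h, 119, 90.5 and 119 at 1 h, 10.9, 5.96 and 7.07 at 6 h, and then 6.69, 4.19 and 5.13 at 72 h. Every 6 h library was above every 0 h library of its line, and the groups of 72 h and 0 h overlapped. Os01g0833400 went from 10.1, 11.3 and 14.5 CPM in WT root to 132, 112 and 156 at 1 h, to 19.1, 15.3 and 20.6 at 6 h and to 12.2, 10.6 and 13.0 at 72 h. Its aoc root levels were 11.1, 12.1 and 16.1 CPM at 0 h, 119, 136 and 139 at 1 h, 20.7, 20.5 and 28.2 at 6 h, ending with 11.3, 12.3 and 14.9 at 72 h. At 6 h no library overlapped those of 0 h, and at 72 h the 2 hours could not be separated. Os06g0201500 was a low transcript, at 0.236, 0.179 and 0.362 CPM in WT root at 0 h, 4.50, 6.80 and 7.35 at 1 h, 0.441, 0.685 and 1.07 at 6 h, followed by 0.480, 0.319 and 0.426 at 72 h. In aoc root Os06g0201500 read 0.367, 0.665 and 0.612 CPM at 0 h, 7.04, 11.0 and 8.03 at 1 h, 1.52, 0.994 and 2.23 at 6 h, and then 1.04, 1.39 and 1.91 at 72 h. At 72 h its aoc libraries were still all above those of 0 h and its WT libraries overlapped them, and it is the member closest to the later limit.

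Os03g0141200 returned to about its starting level. Its WT root libraries held 46.5, 67.0 and 72.7 CPM at 0 h, 752, 1127 and 1498 at 1 h, 64.3, 80.3 and 64.8 at 6 h, ending with 52.1, 57.9 and 96.3 at 72 h. Its aoc root libraries held 53.4, 64.2 and 62.9 CPM at 0 h, 978, 995 and 1201 at 1 h, 77.0, 83.7 and 108 at 6 h, followed by 88.7, 77.0 and 86.4 at 72 h. In WT the later libraries overlapped those of 0 h, and in aoc they all lay above them. Os03g0769500 held 0.503, 0.716 and 0.362 CPM in the untreated WT roots, against 17.1, 17.9 and 18.7 after 1 h. In aoc root Os03g0769500 held 0.796, 0.560 and 0.766 CPM at 0 h and 30.0, 21.9 and 23.8 at 1 h. Its 1 h libraries in WT were the most alike of any member there, and by 6 h both lines were back to between 0.163 and 0.507 CPM.

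Os03g0623100 had few reads outside 1 h: 2, 9 and 1 over the WT root libraries of 0, 6 and 72 h, and 5, 22 and 42 over those of aoc, 34 of the 42 in 1 library. It had 0, 0 and 2 reads in the WT root libraries of 0 h and 5.86, 6.42 and 11.8 CPM at 1 h, and its aoc root libraries held 7.13, 8.22 and 8.20 CPM at 1 h. The ratio of 1 h to 0 h in WT, 1254 reads against 2, was 457 with a 95% counting interval from 126 to 3775, an interval that covers counting error only. Os10g0542400 held 0.443, 0.597 and 0.784 CPM in WT root at 0 h and 9.18, 8.16 and 11.0 at 1 h, against 0.367, 0.245 and 0.204 at 0 h and 9.54, 8.93 and 8.56 at 1 h in aoc root. At 6 h its WT libraries read 0.757, 0.417 and 0.553 CPM and overlapped those of 0 h. Its aoc libraries of 6 h, at 0.964, 0.577 and 0.872 CPM, all lay above those of aoc at 0 h. At 72 h its WT libraries, at 0.103, 0.213 and 0.164 CPM, were all under those of 0 h, and its aoc libraries, at 0.202, 0.441 and 0.344, overlapped them. Os01g0893400, Os04g0412300 and Os04g0649000 had 1 h values of L between 3.05 and 3.46 and later values between −0.19 and 0.64.

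**Figure D2:**
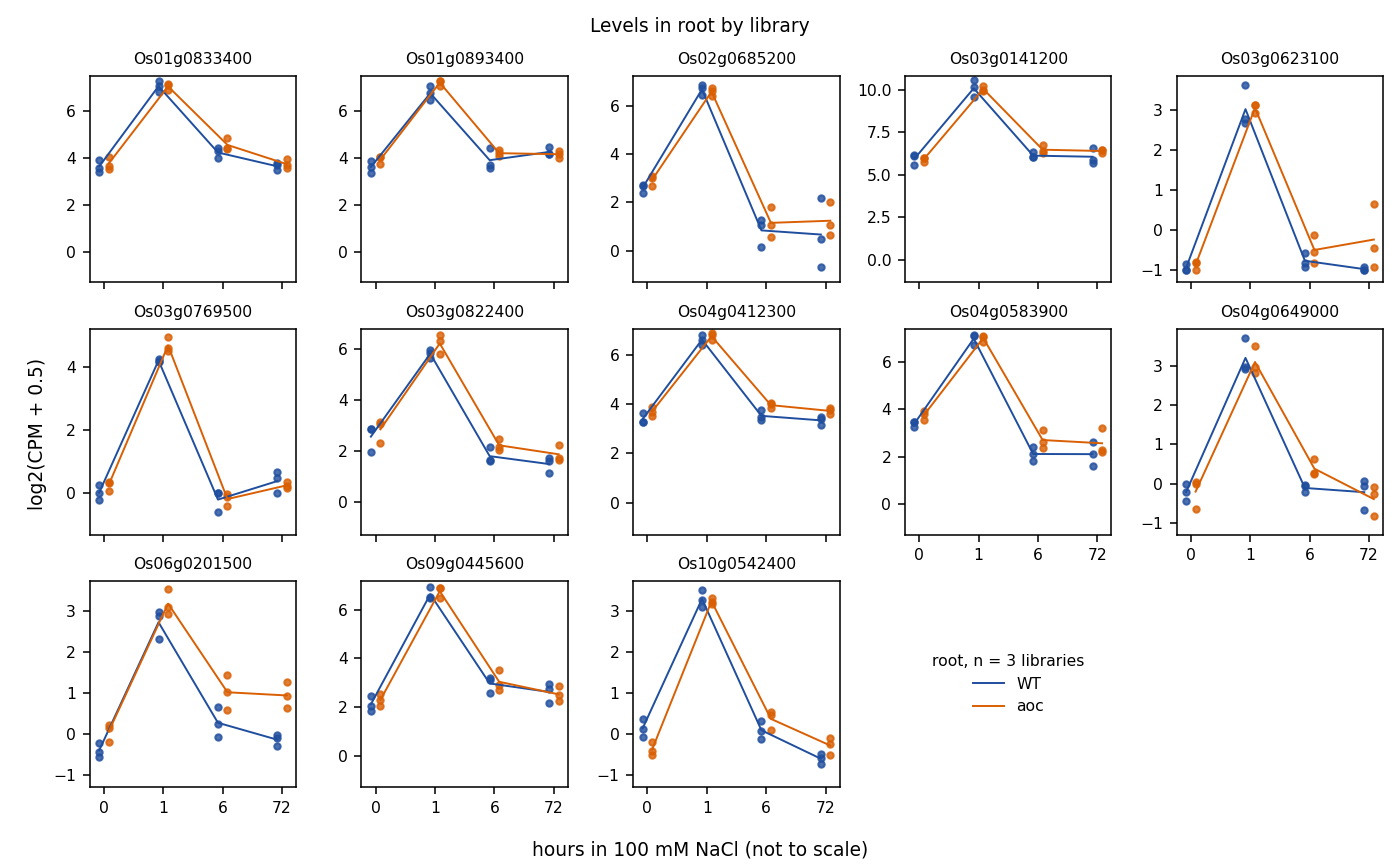
Root level of each member as log2 of CPM plus 0.5 at 0, 1, 6 and 72 h (hours not to scale), with 1 point for each library and lines through the means of the 3 WT and the 3 aoc libraries on that scale. Every member peaks at 1 h in both lines, for example at a mean of 133 CPM (WT) and 132 CPM (aoc) in Os01g0833400 and of 6.22 and 8.68 CPM in Os06g0201500.

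In the fit of all root libraries with edgeR, whose quasi-likelihood test calls a change at a Benjamini-Hochberg adjusted p under 0.05, all 13 members passed the filter on low counts. All 13 were called higher at 1 h in WT and all 13 in aoc, where 17.5% and 18.1% of the 26195 identifiers tested were called higher. Their log2 fold changes at 1 h were between 3.33 and 8.54 in WT, with a median of 4.30, and between 3.17 and 7.27 in aoc, with a median of 4.04. At 6 h 3 members were called higher and 3 lower in WT root, beside 13.0% and 11.9% of all identifiers, and in aoc root 4 and 4, beside 16.7% and 16.6%. At 72 h WT root had 1 called higher and 3 lower, beside 9.19% and 9.73%, and aoc root had 2 and 3, beside 9.46% and 10.3%. The members were picked on their levels at 1, 6 and 72 h, so nothing is read from any of these root counts. By 6 h the mean level was between 1.14% (Os03g0623100) and 13.8% (Os01g0833400) of the 1 h mean in WT, and between 1.55% (Os03g0769500) and 18.2% (Os06g0201500) in aoc.

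The replicates of WT root at 1 h did not scatter evenly over the members. Replicate 3, the deepest library, held the highest CPM of the 3 libraries for 13 of 13 members, whereas it was highest for 30.19% of all identifiers with a read in that group. Its level was between 1.07 and 1.93 times the mean of the other 2 libraries, with a median of 1.28, and between 1.11 and 1.99 times, with a median of 1.32, after TMM scaling. Among the other 115 identifiers with L of 3 or more at 1 h in both lines, it was highest for 74, with a median ratio of 1.21. In aoc root at 1 h the highest library was replicate 1 for 6 members, replicate 2 for 4 and replicate 3 for 3. Without WT replicate 3 every member still met the rule, with 1 h values of L lower by between 0.03 and 0.36. That library held 71663904 counts, and the part of its depth in these ratios was not tested.

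**Figure D3:**
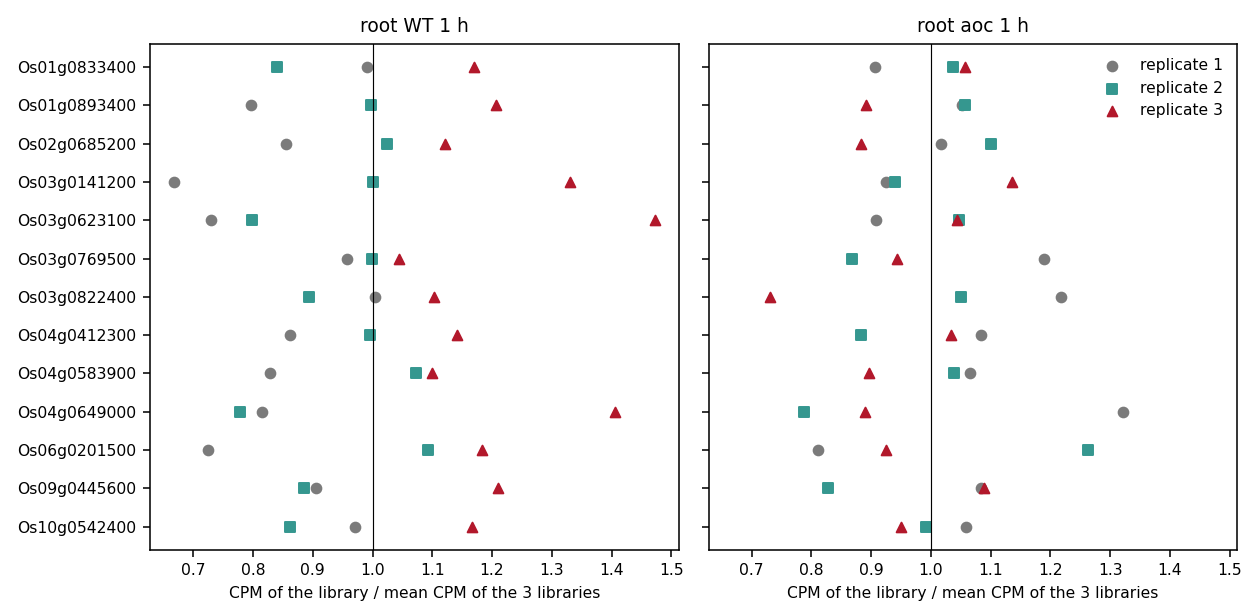
CPM of each member in the 3 WT and the 3 aoc root libraries of 1 h, each divided by the mean of its group, with 1 point for each library. WT replicate 3 is the highest of its group for all 13 members, and no aoc library holds that place for more than 6.

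The study set aoc beside WT to compare how the lines respond to salt, and the values here come from genes required to meet the same limits in both lines. A small difference between the lines is therefore fixed in part by the choice, and a test that was not passed says nothing about genes at large. At 1 h in salt no member passed the test between the lines in root. The log2 difference (aoc minus WT) was between −0.16 (Os04g0649000) and 0.47 (Os03g0769500), which is under 2-fold for all 13, with standard errors between 0.131 and 0.566. By edgeR's quasi-likelihood test 0 of 13 members passed, where 3.50% of identifiers did. An unadjusted p under 0.05 was found for 4628 of 26195 identifiers and for 1 member. That member was Os01g0893400, at 88.0, 110.3 and 133 CPM in WT and 158, 158 and 133 in aoc, with a log2 difference of 0.41 ± 0.189 (SE, n = 3 and 3) and an edgeR adjusted p of 0.259. DESeq2 called 0 members as well, and 1619 of 27043 identifiers. The 95% intervals of the differences reached from −1.26 at the lowest to 1.12 at the highest, and for 9 of 13 members the whole interval lay within 2-fold in either direction.

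The size of the change from 0 h to 1 h was compared between the lines in the same fit, among genes that had to be high at 1 h in both. The difference between changes (aoc minus WT) was between −1.27 (Os03g0623100) and 1.04 (Os10g0542400) on the log2 scale, with a median of −0.20. It passed for 0 of 13 members by edgeR and by DESeq2. Over all identifiers 3 of 26195 passed by edgeR, which is 0.0115%, and 27 of 29526 by DESeq2. An unadjusted edgeR p under 0.05 was found for 1 member, Os10g0542400, and for 1140 of the 26195 identifiers. For Os10g0542400 the 95% interval of the difference was 0.19 to 1.88, an interval not adjusted for picking it among 13 members. Its edgeR adjusted p was 0.999962. Its aoc libraries were all lower than its WT libraries at 0 h, beside 8.09% of all identifiers, and its 1 h libraries overlapped.

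Before salt, 0 of 13 members passed the test between the lines, where 0.756% of identifiers did. An unadjusted edgeR p under 0.05 was found for 3 members and for 2988 of 26195 identifiers. DESeq2 called 0 members and 591 of 28284 identifiers. Of the 13 log2 differences 11 were above 0, with a median of 0.34 and a range from −1.14 to 1.20. For the other 115 early root identifiers 86 were above 0, with a median of 0.39. Replicate 3 of aoc root at 0 h was the highest of its group for 8 of 13 members and for 35.18% of all identifiers. Among identifiers with L of 3 or more at 1 h in both lines and a read there, it was so for 97 of 127.

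By mean CPM Os06g0201500 was higher in aoc than in WT root at 0, 6 and 72 h, and of these hours it passed the test at 72 h only. At 6 h the libraries overlapped, with a log2 difference of 1.10 ± 0.361 and an edgeR adjusted p of 0.129. At 0 h every aoc library, at 0.367, 0.665 and 0.612 CPM, was above every WT library, at 0.236, 0.179 and 0.362, with a log2 difference of 1.10 ± 0.43 and an edgeR adjusted p of 0.312 (0.0192 unadjusted). Over all identifiers 6.87% had aoc above WT without overlap at 0 h, and 8.68% did at 72 h. Whether the difference of Os06g0201500 grew from 0 h to 72 h was not tested. At 72 h it read 0.480, 0.319 and 0.426 CPM in WT root and 1.04, 1.39 and 1.91 in aoc root, so the libraries did not overlap. The log2 difference was 1.82 ± 0.386 (SE, n = 3 and 3; edgeR adjusted p = 0.0147). The adjusted p was 0.0827 when WT 72 h replicate 2 was left out, 0.0849 when aoc 72 h replicate 3 was, and 0.112 in a fit of these 6 libraries only. Os03g0623100 also passed at 72 h, with 0, 1 and 0 reads in WT and 7, 34 and 1 in aoc. The ratio of its summed reads per depth was 43.7, with a counting interval from 7.43 to 1767, and its edgeR adjusted p of 0.0439 became 0.342 without aoc replicate 2, which held 34 of the 42 aoc reads. Those 2 members made up the count at 72 h, where 1.85% of identifiers passed higher in aoc, as did 18 of the other 115 early root identifiers. Numbered replicates deviated together in root, and with the replicate number as a block 3 members passed at 72 h. The third was Os04g0412300 with a log2 difference of 0.39 (edgeR adjusted p = 0.0435). Over all 26195 identifiers that block took the count in either direction from 848 to 1709.

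At 6 h 0 of 13 members passed between the lines by edgeR or DESeq2. Over all identifiers 2.65% passed by edgeR and 1175 of 28284 by DESeq2. An unadjusted edgeR p under 0.05 was found for 3 members and for 3974 of 26195 identifiers. The log2 differences were above 0 for 12 of 13 members, with a median of 0.44, and for 94 of the other 115 early root identifiers, with a median of 0.53. With the replicate number as a block 2 members passed. Os06g0201500 had a log2 difference of 1.12 (edgeR adjusted p = 0.0389) and Os04g0412300 one of 0.44 (edgeR adjusted p = 0.0267). Over all 26195 identifiers that block took the count from 695 to 1144. Os04g0412300 read 13.0, 10.5 and 9.65 CPM in WT root at 6 h and 16.0, 13.6 and 15.4 in aoc root, libraries that did not overlap. Over all identifiers 9.11% had aoc above WT in this way.

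The same 13 identifiers in the 2nd leaf gave a separate measurement. At 1 h few passed edgeR's test, 1 as higher in WT leaf and 0 in aoc leaf. Over all identifiers 0.818% passed as higher in WT and 0.654% in either direction in aoc. Log2 changes at 1 h were above 0 for 12 of 13 members in WT leaf. In aoc leaf 7 were above 0, and 10 without aoc 0 h replicate 3. Before salt 4 members were more abundant in leaf than in root in every library of both lines. Os03g0141200 held 510.4, 874 and 630.1 CPM in WT leaf at 0 h and 723, 1147 and 1026 in aoc leaf, which is 10.8 and 16.05 times the root level and 59.65% and 91.26% of the mean that root reached at 1 h. Os01g0893400 was 7.02 times (WT) and 6.64 times (aoc) as abundant in leaf as in root, Os02g0685200 3.18 and 3.58 times, and Os04g0412300 3.45 and 2.12 times. Over all identifiers 20.2% in WT and 17.6% in aoc lay above root in this way. In WT 5 members lay lower in leaf than in root in every library, beside 53.5% of all identifiers, and in aoc 4 did, beside 55.1%. The organs were fitted separately and their CPM rest on RNA from different kits, so these ratios carry no test.

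**Figure D4:**
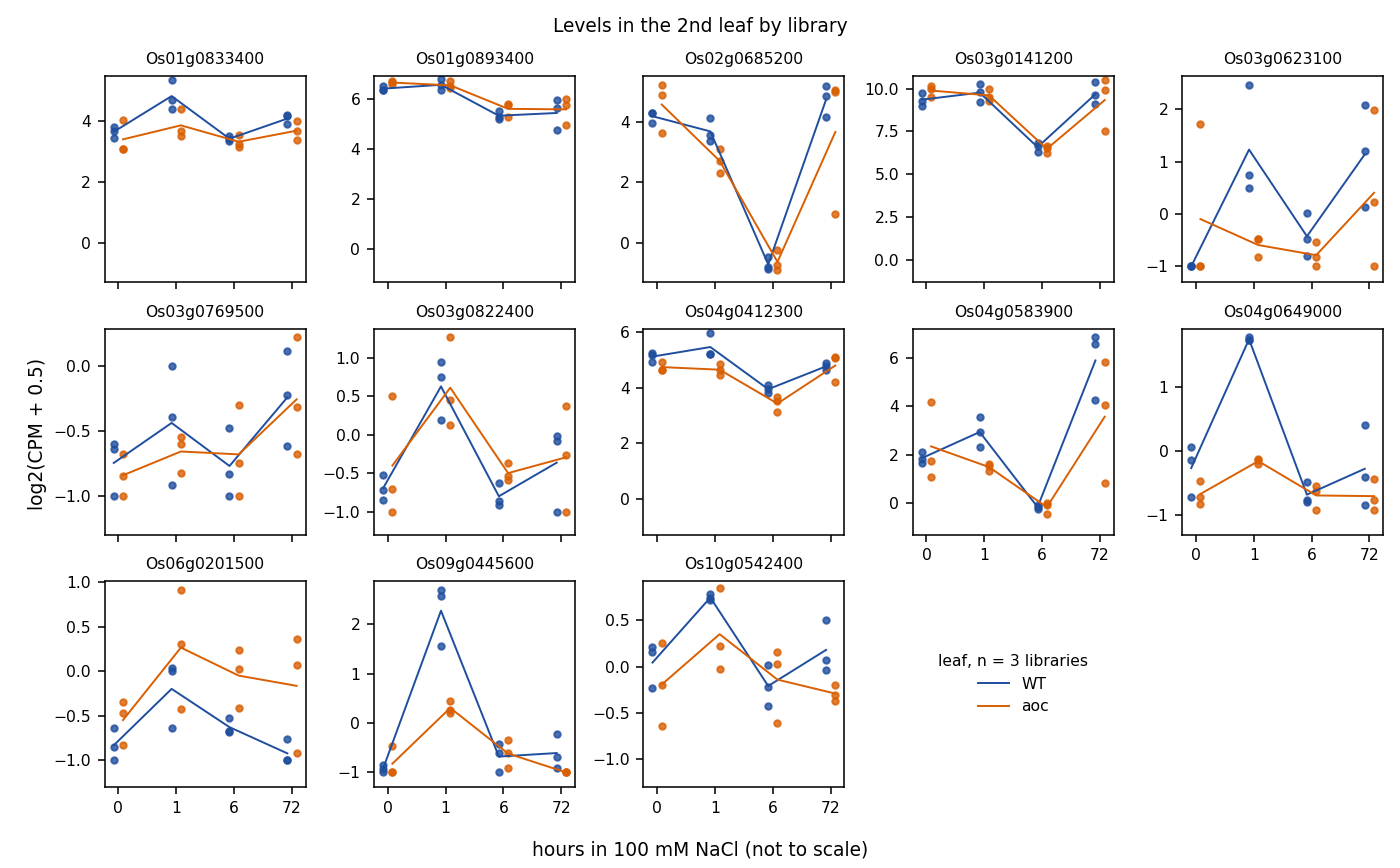
Leaf level of each member as log2 of CPM plus 0.5 at 0, 1, 6 and 72 h (hours not to scale), with 1 point for each library and lines through the WT and aoc means; a library with no read lies at −1. Os01g0893400, Os02g0685200, Os03g0141200, Os04g0412300 and Os04g0583900 dip at 6 h in both lines, and the 1 h rise of Os09g0445600 from 0.0280 to 4.61 CPM in WT is 0.0737 to 0.739 CPM in aoc.

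At 6 h 5 members fell in leaf and 0 rose by edgeR's test, in WT as in aoc. DESeq2 called the same 5 lower in each line and 1 higher in WT, Os03g0623100. That identifier went from no read to 0.0731, 0.509 and 0.216 CPM, 30 reads in all. The rise was at least 9.15-fold against a floor of 3 counts over the group. Its DESeq2 adjusted p was 1.82e-19, against a group with no read, and its edgeR adjusted p was 0.164. Over all identifiers DESeq2 called 8162 of 25675 in WT and 9647 of 26279 in aoc, in either direction. Os02g0685200 went from 15.2, 19.3 and 18.9 CPM at 0 h in WT leaf to 0.0487, 0.0763 and 0.216 at 6 h, and from 11.9, 28.9 and 36.5 to 0.355, 0.0305 and 0.0946 in aoc leaf. The log2 change was −7.41 ± 1.01 in WT (SE, n = 3 and 3, edgeR adjusted p = 9.83e-05) and −7.47 ± 0.995 in aoc (3.31e-05), from 1851 to 12 reads and from 2608 to 15. Its level had returned by 72 h to 36.0, 17.4 and 28.5 CPM in WT and to 32.7, 1.43 and 31.4 in aoc, where replicate 2 stayed low. In root the same identifier was also under its 0 h level at 6 h.

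Os03g0141200 fell at 6 h to 77.5, 111 and 101 CPM in WT leaf and to 75.2, 102 and 92.2 in aoc leaf. On the log2 scale it changed by −2.90 ± 0.562 in WT (edgeR adjusted p = 0.000963) and by −3.54 ± 0.578 in aoc (0.00017). At those 6 h levels the leaf was close to the root at 6 h, where the libraries held between 64.3 and 108 CPM. Os01g0893400 fell from 89.7, 81.4 and 79.7 CPM to 44.5, 37.7 and 36.2 in WT leaf, by 1.18 ± 0.224 on the log2 scale (edgeR adjusted p = 0.000796), and in aoc leaf by 1.16 ± 0.223 (0.000617). Os04g0412300 fell from 29.9, 37.6 and 36.3 CPM to 16.5, 13.5 and 15.0 in WT leaf, by 1.31 ± 0.242 (edgeR adjusted p = 0.000663), and in aoc leaf by 1.47 ± 0.244 (0.000185). None of these 4 members had overlapping libraries between 0 h and 6 h in either line. Over all identifiers 17.2% in WT and 16% in aoc lay below 0 h in this way. All 4 are the ones whose leaf level at 0 h was above the root level. Apart from Os01g0833400 and Os04g0583900, the remaining members had leaf means of at most 0.926 CPM at 0 h, which left little room to see a fall.

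The fifth was Os04g0583900, at 3.83, 3.01 and 2.64 CPM in WT leaf at 0 h and 0.390, 0.458 and 0.339 at 6 h. The call on its WT change, −3.07 ± 1.08 in log2 units with an edgeR adjusted p of 0.0381, was lost when any of the 6 libraries was left out (adjusted p between 0.0657 and 0.108) and without the filter on low counts (0.0513). In aoc leaf, at 1.64, 2.84 and 17.8 CPM and then 0.452, 0.244 and 0.505, it fell by 4.31 ± 1.11 on the log2 scale (edgeR adjusted p = 0.0053), and without aoc 0 h replicate 3 the adjusted p was 0.0624. The 5 of 13 stand beside 13.6% of all 24317 identifiers called lower in WT and 15.9% in aoc, and the 0 that rose stand beside 15.6% and 19.6% called higher. The median log2 fold change over the 13 at 6 h was −0.66 in WT and −0.78 in aoc, against 0.025 and 0.023 over all identifiers tested. Of the other 115 identifiers with L of 3 or more in root at 1 h, 109 were tested in leaf, and at 6 h 19 of them rose and 5 fell in WT, and 16 rose and 10 fell in aoc. The difference between these 109 and the 13 members was not tested.

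**Figure D5:**
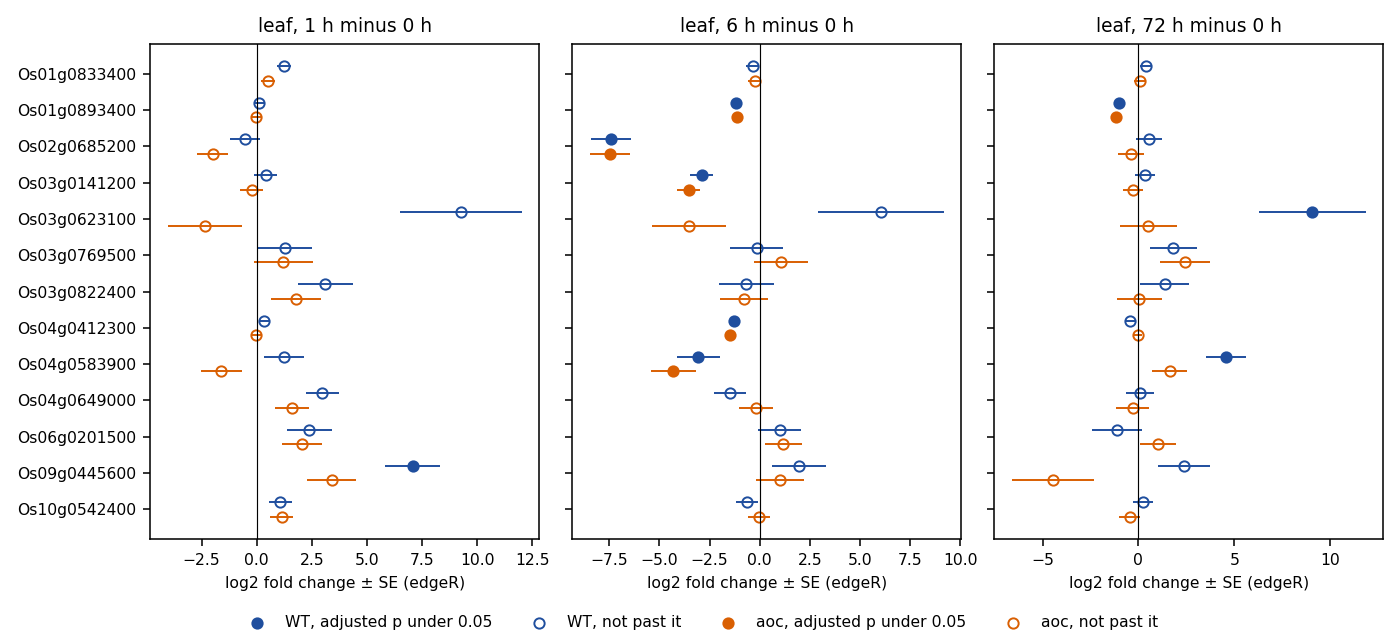
Log2 fold change from 0 h in leaf of each member at 1, 6 and 72 h, WT and aoc side by side, with bars of 1 standard error from edgeR and filled points for adjusted p under 0.05. The 5 called members at 6 h lie between −1.16 and −7.47 in both lines; Os03g0623100 had no read in WT leaf at 0 h, so its fitted values there are no measure of size.

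At 1 h 1 of 13 members rose in WT leaf by edgeR's test, where 0.818% of identifiers were called higher. DESeq2 called 4 members higher. Over all identifiers it called 934 of 24474 in either direction, against 311 of 24317 by edgeR. Os09g0445600 had 0, 0.0271 and 0.0568 CPM at 0 h, 3 reads in all, and 5.42, 5.95 and 2.47 CPM at 1 h, 451 reads. The ratio per depth was 157, with a 95% counting interval from 53.5 to 765, and the edgeR adjusted p was 0.0130. It was lost without WT 0 h replicate 1 (0.059), 2 (0.085) or 3 (0.0718) and without WT 1 h replicate 2 (0.0563). By 6 h it was back at 0.244, 0 and 0.154 CPM, so in WT leaf its course had the form of the root course.

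Os04g0649000 missed the threshold narrowly in WT leaf. It read 0.547, 0.407 and 0.114 CPM at 0 h and 2.95, 2.83 and 2.84 at 1 h, a log2 change of 2.98 ± 0.731 with an edgeR adjusted p of 0.0502, which was under 0.05 in 5 of 13 alternatives. Os01g0833400 read 10.4, 12.3 and 13.4 CPM at 0 h and 20.5, 40.5 and 25.4 at 1 h, with 1.22 ± 0.32 (edgeR adjusted p = 0.0707). Os03g0623100 had no read in the WT leaf libraries of 0 h and 1.17, 0.904 and 5.02 CPM at 1 h. Against a floor of 3 counts over the group that is at least 83.3-fold higher, and the edgeR adjusted p was 0.122. For 8 of 13 members every WT leaf library of 1 h was above every library of 0 h, where 13.4% of all identifiers had such a split. Log2 fold changes were above 0 for 12 of 13 members, with a median of 1.24 against 0.013 over all identifiers. An unadjusted edgeR p under 0.05 was found for 6 members and for 3259 of 24317 identifiers. Of the other 109 early root genes tested in leaf, 107 were above 0, with a median of 2.69, and 22 were called higher. The difference between these 109 and the members was not tested.

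In aoc leaf at 1 h 0 of 13 members passed by edgeR or DESeq2. Over all identifiers 0.654% passed by edgeR in either direction and 670 of 23872 by DESeq2. An unadjusted edgeR p under 0.05 was found for 3 members and for 3130 of 24317 identifiers. Log2 fold changes were above 0 for 7 of 13 members, with a median of 0.52, and for 64 of the other 109 early root genes, with a median of 0.27. Os09g0445600 read 0, 0 and 0.221 CPM at 0 h and 0.860, 0.709 and 0.648 at 1 h. Os04g0649000 read 0.230, 0.111 and 0.0631 CPM at 0 h and 0.414, 0.419 and 0.371 at 1 h. Both were higher at 1 h in every aoc library, the 2 of 13 members to be so, beside 6.22% of all identifiers. Both also stood under every WT library of 1 h. Such a split, aoc under WT at 1 h in leaf, was found for 7 of 13 members and for 30.2% of all identifiers.

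The difference between the leaf changes at 1 h (aoc minus WT) was tested directly. It passed for 0 of 13 members and for 0.00% of all identifiers by edgeR. DESeq2 called 1 member, Os03g0623100, and 57 of 26883 identifiers. An unadjusted edgeR p under 0.05 was found for 2 members and for 1183 of 24317 identifiers. The log2 difference was under 0 for 12 of 13 members, with a median of −0.70, and for the other 109 early root genes tested the median was −2.07. Replicate 3 of aoc leaf at 0 h held the highest level of its group for 9 of 13 members and for 109 of the 126 identifiers with a read there that had L of 3 or more in root at 1 h in both lines, against 39.09% of all identifiers. Without that library the median difference over the 13 was −0.30, with 9 under 0 and no member at an unadjusted p under 0.05, and the median change in aoc leaf at 1 h was 1.28 rather than 0.52, with 10 above 0. For Os03g0623100 the aoc libraries of 0 h held 0, 0 and 88 reads, and the call rests on groups at or next to 0.

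At 72 h in leaf the members moved in different directions. Os04g0583900 rose in WT leaf, from 3.83, 3.01 and 2.64 CPM at 0 h to 18.4, 114 and 96.0, by 4.56 ± 1.03 in log2 units, with an edgeR adjusted p of 0.00442. The aoc leaf libraries read 16.1, 1.28 and 56.3 CPM at 72 h, which spanned the 0 h libraries, and the change did not pass. Os01g0893400 fell in WT leaf to 60.3, 48.6 and 26.0 CPM, by 0.99 ± 0.223 on the log2 scale (edgeR adjusted p = 0.00436, and 0.0549 in a fit of these 6 libraries only). In aoc leaf it fell to 63.4, 53.2 and 30.6 CPM, by 1.18 ± 0.223 (0.00106). This identifier was lower at 6 h and at 72 h than at 0 h in every leaf library of both lines. At 72 h 13.1% of all identifiers lay below in this way in WT leaf and 12.1% in aoc leaf.

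Os03g0623100 passed as higher in WT leaf at 72 h, from no read to 0.596, 1.81 and 3.75 CPM, at least 68.9-fold against a floor of 3 counts over the group (edgeR adjusted p = 0.0229). Leaving out any 1 of the WT 0 h libraries gave an adjusted p between 0.0608 and 0.0675, and leaving out WT 72 h replicate 3 gave 0.0715. The counts were thus 2 higher and 1 lower in WT, where 15.0% and 13.6% of identifiers were called, and 0 higher and 1 lower in aoc, where 15.7% and 14.8% were. The aoc libraries of Os03g0623100, Os04g0583900 and Os02g0685200 were uneven: replicate 2 of 72 h held 0, 1.28 and 1.43 CPM, and replicate 3 of 0 h held 2.78, 17.8 and 36.5 CPM, the highest of its group for each. Without aoc 0 h replicate 3, Os03g0623100 (edgeR adjusted p = 0.0336) and Os04g0583900 (0.0251) also passed as higher in aoc leaf at 72 h.

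The members share no position. Read from the identifiers, which name the chromosome and the order along it, 4 lay on chromosome 3, 3 on chromosome 4, 2 on chromosome 1 and 1 each on chromosomes 2, 6, 9 and 10, with at least 418 listed identifiers between any 2 on the same chromosome. Of the 26 identifiers listed next to a member, 3 had L of 1 or more at 1 h in both lines, 11.54% against 3.154% of all identifiers. They were the one beside Os01g0893400, Os01g0893700, at 1.17 in WT and 1.49 in aoc, Os02g0685350 at 1.17 and 1.13, and Os04g0648900, the neighbour of Os04g0649000, at 1.37 and 1.28. None of the 3 met the limit of 3. Neighbouring identifiers can share reads where transcripts overlap, and the strand setting of the counting is not given in the sources used here.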

How the data were processed

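RNA from root and the 2nd leaf was sequenced in 48 libraries. Per the submitters' processing notes the reads were trimmed with fastp and handled with HISAT2 and DESeq2 on build IRGSP-1.0. Tool versions, the read counter, its strand setting and the gene models were not stated in those notes. The authors deposited raw counts per gene identifier, whole numbers for 35667 identifiers, 3032 of them without a read. The reference table, of another assembly, held 1 of the identifiers and 0 of the members, so no names, roles or sequences are given and all 13 members are named as the whole group; the gene lists, tissue markers and motifs planned by name could not be applied.

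CPM were counts per 1000000 of the column total. Tests used edgeR 4.0.16 (R 4.3.3, limma 3.58.1): TMM scaling, with factors between 0.8076 and 1.151, filterByExpr, 1 robust quasi-likelihood fit of group means for the 24 libraries of each organ, and Benjamini-Hochberg adjustment over the 26195 root or 24317 leaf identifiers kept, with calls at adjusted p under 0.05. Standard errors are the log2 fold change over the root of F, and 95% intervals use the t quantile at the test's degrees of freedom. All 13 members were kept in both organs. DESeq2 1.42.0, RLE scaling, no filter, the compared groups alone, left-out libraries and a replicate block were alternatives. No libraries were alike within sampling noise (chi-square per degree of freedom between 16.3 and 283 for libraries of a group), and nothing says that replicates came from separate cultures, so p-values measure the spread between these samples. Members and comparisons were chosen with earlier results of these data known.

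Deviations from the group means correlated over 0.1 in every pair of same-numbered libraries, the pairing coming from the data and the labels' numbers, for aoc against WT in root (0.25 to 0.416 at 0 h, 0.107 to 0.431 at 1 h, 0.208 to 0.308 at 6 h, 0.2 to 0.289 at 72 h), for WT leaf at 6 h (0.161 to 0.414) and for aoc leaf at 72 h (0.141 to 0.493); there the blocked value stands beside a result it changes.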

Additional observations from a re-analysis of the deposited data

Results flagged for a closer look

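For 5 results no library of the hour overlapped those of 0 h in leaf or in root, with leaf and root on opposite sides. None of these 5 was tested as a difference between the organs. The share of all identifiers on such opposite sides was not counted. Within 1 organ such a split was common over all identifiers. At 72 h in WT 20.6% lay above and 13.1% below in leaf, and 17.9% and 15.3% in root. In aoc 16% lay below in leaf and 24% above in root at 6 h, and 12.1% and 17.1% at 1 h. The log2 fold change of Os01g0893400 was −0.99 in WT leaf at 72 h and −1.16 in aoc leaf at 6 h, while every root library of the same line and hour was above every root library of 0 h. Os04g0583900 stood at 4.56 in WT leaf at 72 h, while every root library was lower than at 0 h. Os02g0685200 stood at −1.99 in aoc leaf at 1 h, where it did not pass the test, and was higher in every root library. Os03g0141200 stood at −3.54 in aoc leaf at 6 h and was higher in every root library. The root side of each was fixed in part by the choice of members.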

How the results depend on the processing

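The counts of members called in leaf, and in root between the lines, were recomputed under the alternatives; those of the root changes from 0 h, which the choice of members used, were not. In WT leaf at 1 h the count of 1 became 2 with RLE size factors, 3 with a replicate block, 4 with DESeq2, 3 with the compared groups alone, 3 with the 72 h libraries out of the fit, and 0 to 2 when 1 library was left out. Over all identifiers the calls in WT leaf at 1 h went from 311 to 310 with RLE, 553 with the block and 934 with DESeq2. They went to 652 with the compared groups alone and to 1221 with the 72 h libraries out. In aoc leaf at 1 h the count of 0 became 1 with the 72 h libraries out (Os02g0685200, edgeR adjusted p 0.0223). There the calls over all identifiers went from 159 to 1065. In aoc leaf at 72 h the count of 1 became 3 with aoc 0 h replicate 3 out, and was 1 to 3 when any 1 library was left out. The leaf difference between changes went from 0 to 1 with DESeq2. In root, aoc against WT at 6 h went from 0 to 2 with the replicate block, and at 72 h from 2 to 3 with the block, to 1 without the filter, to 0 with the compared groups alone and to 0 to 2 when 1 library was left out. The other counts when 1 library was left out were 4 to 4 for WT leaf and 4 to 5 for aoc leaf at 6 h, 2 to 3 for WT leaf at 72 h, and 0 to 0 in the 6 other comparisons recomputed. The block changed no other count past 1.5 times. The causes were not tested.

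The number of members, 13, became 21 with TMM-scaled CPM (13 shared), 17 with a pseudocount of 0.1 (10 shared), 16 with 1 (10 shared), 8 with 5 (3 shared), 5 with a later limit of 0.5, 3 with a 1 h limit of 4, and 12 to 17 when 1 library was left out. The log2 change of Os03g0623100 in aoc leaf at 72 h, 0.52, turned to −0.07 and −0.06 without aoc 0 h replicate 1 or 2, to −1.61 without aoc 72 h replicate 3, and became 8.60 without aoc 0 h replicate 3, a fitted value against 0 reads. Depth limits the members near or under 1 CPM most.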
